A study of Homo sapiens with 3 samples.

Results

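Citrate synthase, aconitase, isocitrate dehydrogenase and malate dehydrogenase carry carbon from acetyl-CoA through citrate and isocitrate in the tricarboxylic acid (TCA) cycle and close the cycle at oxaloacetate. Their genes CS, ACO1, IDH1, IDH2, IDH3A, IDH3B, IDH3G, MDH1 and MDH2 were described here, 9 of the 62754 genes in the deposited table. They were taken by symbol through the Ensembl identifiers of GENCODE release 44, and all 9 were found. RNA-seq was measured in MCF10A cells, an immortalized and non-tumorigenic line of human breast epithelium. The cells had been transduced with the empty Tet-One vector, which holds no gene of interest, and were selected with puromycin and harvested with no doxycycline and no other treatment. The 3 libraries, each from 300 ng of RNA, were replicates of this 1 group and 1 batch, so nothing could be compared between groups. Nothing in the labels says that the replicates came from separate cultures, and their spread may thus be technical.

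Several of these reactions exist in more than one compartment. IDH1 and MDH1 act in the cytosol (IDH1 also in peroxisomes), and IDH2 and MDH2 in the mitochondrial matrix. IDH1 and IDH2 reduce NADP to NADPH, whereas the heteromeric enzyme of IDH3A, IDH3B and IDH3G reduces NAD and is the isocitrate dehydrogenase of the TCA cycle itself. ACO1 is the cytosolic aconitase, which without its iron-sulfur cluster binds iron-responsive elements in mRNA. Cytosolic and mitochondrial malate dehydrogenase together form part of the malate-aspartate shuttle, which moves reducing equivalents of NADH across the inner membrane.

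The values were TPM, a read number corrected for gene length and scaled so that each library sums to 1000000 transcripts. Multiplied by the length of the longest annotated transcript, less 1 base per exon, they were whole multiples of 1 step per library. If this step is a single read, the libraries held between 11166546 and 15446347 reads. Between 12809 and 17595 of these reads fell on the 9 genes, or 0.114% to 0.115% of a library. All 6 genes listed for basal breast epithelium, including the epithelial cadherin CDH1, were at or above 1 TPM by the mean. The same held for 56.7% of protein-coding genes. The summed level of the 6 lay between 13993 and 18046 TPM. Of 6 markers of other cell types, 1 was at or above 1 TPM, the endothelial gene PECAM1 at 1.77 ± 0.19 TPM (SD, n = 3). The summed level of these 6 lay between 1.74 and 2.05 TPM, and COL1A2 and ALB had 0 reads.

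The region before the transcription start is shown for the subunits of NAD-dependent isocitrate dehydrogenase, which are needed in a single complex, and for both malate dehydrogenases, whose levels lay closer than those of IDH1 and IDH2. The 250 bases before the start are from RefSeq on GRCh38.p14, written 5′ to 3′ on the strand of the gene. Capitals mark every match on either strand to GGGCGG (the SP1 box), the NRF1 motif (GCGC and TGCGC with any 1 base between) or CCAAT (the CCAAT box).
IDH3A (chr15:78149112-78149361, plus strand): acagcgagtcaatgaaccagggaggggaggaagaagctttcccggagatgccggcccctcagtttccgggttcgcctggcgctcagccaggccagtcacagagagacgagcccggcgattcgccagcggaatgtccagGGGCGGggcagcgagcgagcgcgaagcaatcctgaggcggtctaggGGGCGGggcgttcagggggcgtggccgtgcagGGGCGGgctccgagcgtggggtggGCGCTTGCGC
IDH3B (chr20:2664217-2664466, minus strand): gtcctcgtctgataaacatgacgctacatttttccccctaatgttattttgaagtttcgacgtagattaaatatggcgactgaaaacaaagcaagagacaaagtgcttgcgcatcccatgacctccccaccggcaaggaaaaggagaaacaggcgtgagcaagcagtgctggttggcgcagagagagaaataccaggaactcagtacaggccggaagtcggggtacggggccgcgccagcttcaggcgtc
IDH3G (chrX:153794376-153794625, minus strand): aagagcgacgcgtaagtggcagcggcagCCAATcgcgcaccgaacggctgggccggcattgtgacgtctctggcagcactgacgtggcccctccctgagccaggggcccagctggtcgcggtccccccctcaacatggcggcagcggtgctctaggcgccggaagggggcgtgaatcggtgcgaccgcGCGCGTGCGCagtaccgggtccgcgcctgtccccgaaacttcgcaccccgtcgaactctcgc
MDH1 (chr2:63588713-63588962, plus strand): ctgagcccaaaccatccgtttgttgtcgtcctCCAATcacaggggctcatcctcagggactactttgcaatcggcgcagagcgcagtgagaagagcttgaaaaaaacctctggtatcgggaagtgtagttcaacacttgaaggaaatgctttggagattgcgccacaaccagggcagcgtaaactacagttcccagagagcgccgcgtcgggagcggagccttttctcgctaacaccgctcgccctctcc
MDH2 (chr7:76047856-76048105, plus strand): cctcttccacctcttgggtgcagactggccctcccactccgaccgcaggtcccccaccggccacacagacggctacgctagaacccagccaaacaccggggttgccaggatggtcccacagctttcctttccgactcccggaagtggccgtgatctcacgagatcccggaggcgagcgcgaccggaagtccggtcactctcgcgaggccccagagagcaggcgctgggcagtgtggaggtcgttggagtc
IDH3A held 3 matches to GGGCGG and 1 to the NRF1 motif. IDH3G held 1 match to the NRF1 motif and 1 to CCAAT, and MDH1 held 1 to CCAAT. IDH3B and MDH2 held none of these letters in this window, and no matches overlapped. Among 35116 such windows in RefSeq, 42.6% held GGGCGG, 5.07% the NRF1 motif and 32.0% CCAAT. Of the windows of the 9 genes, 4, 2 and 4 held them in this order. For IDH2, the start in this table lies 1847 bases from that of the canonical transcript, and its window, which held none of them, is not shown. A match is a description of letters and not a measured site.

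All 9 genes were expressed at or above 1 TPM in every replicate. Of 20046 protein-coding genes, 55.2% were at this level in every replicate. A mean of at least 100 TPM was reached by 5 of the 9 genes, and by 7.86% of protein-coding genes. The means ran from 18.4 TPM for IDH2 to 335 TPM for MDH2. Among the 11360 protein-coding genes whose mean reached 1 TPM, MDH2 was higher than 96.8%, MDH1 than 96.2%, CS than 94.5%, IDH1 than 92.4% and IDH3B than 90.4%. IDH3A and IDH3G were higher than 80.5% and 79.3%, and ACO1 and IDH2 than 50.03% and 41.0%. The genes thus fell into both the upper range and the middle of the distribution.

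**Figure D1:**
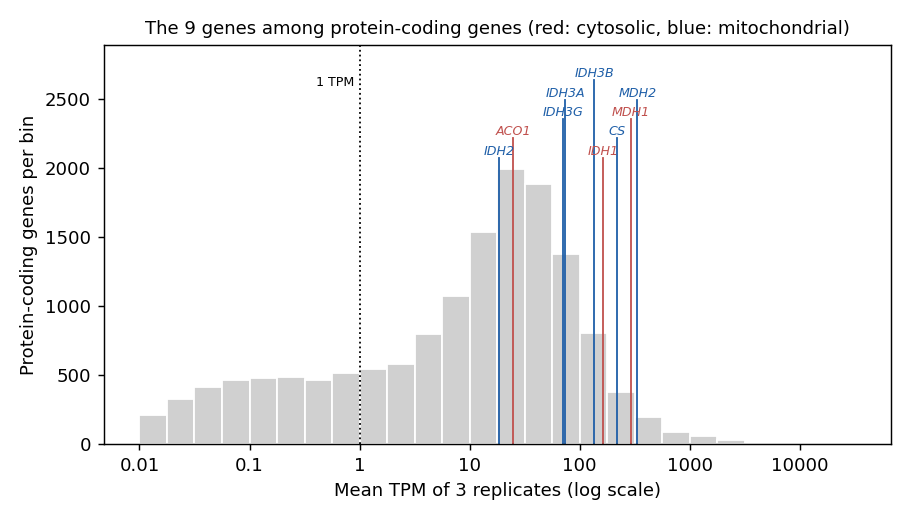
Protein-coding genes whose mean reached 0.01 TPM (grey bars, number of genes per bin, left axis) by mean TPM of 3 replicates (log scale), with the 9 genes as vertical lines (red for cytosolic, blue for mitochondrial enzymes; line height has no meaning). IDH2 at 18.4 TPM and ACO1 at 24.9 TPM lie near the peak of the distribution, and MDH2 at 335 TPM in its upper tail.

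CS (ENSG00000062485, chromosome 12 of hg38, 56271699 to 56300391, minus strand) encodes the enzyme that joins acetyl-CoA to oxaloacetate. It was measured at 224, 238 and 194 TPM in replicates 1, 2 and 3, with a mean of 219 ± 22.3 TPM (SD, n = 3). These values rested on 3590, 3927 and 2653 reads, and replicate 3 was the lowest. Of the canonical transcript, 7.55% overlaps exons of another protein-coding gene on the same strand (ENSG00000144785), which had 0 reads in all libraries. In addition, 16.7% of its 50-base stretches occur in a processed pseudogene on chromosome 19 (ENSG00000273654) with 0.455, 1.22 and 0.401 TPM. Reads from these stretches cannot be assigned with certainty.

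ACO1 (ENSG00000122729, chromosome 9, 32384603 to 32454769, plus strand) was measured at 27.3, 23.1 and 24.3 TPM, with a mean of 24.9 ± 2.16 TPM (SD, n = 3) from 1067, 927 and 810 reads. Replicate 1 was the highest. Its longest transcript in GENCODE release 44 has 7443 bases, the most of the 9 genes.

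The cytosolic and mitochondrial NADP-dependent isocitrate dehydrogenases were far apart in the deposited TPM. IDH1 (ENSG00000138413, chromosome 2, 208236229 to 208266074, minus strand) was measured at 175, 153 and 159 TPM, with a mean of 162 ± 11.2 TPM (SD, n = 3). IDH2 (ENSG00000182054, chromosome 15, 90083045 to 90102477, minus strand) was measured at 19.0, 20.1 and 16.2 TPM, with a mean of 18.4 ± 2.02 TPM (SD, n = 3). The groups of values did not overlap, and IDH1 was 9.20, 7.63 and 9.80-fold higher than IDH2 in replicates 1, 2 and 3. IDH1 held 89.4%, 87.5% and 90.0% of the reads of the pair, with 95% Wilson intervals of 88.2% to 90.6%, 86.1% to 88.8% and 88.6% to 91.3% that cover counting error only. The mean log2 ratio was 3.14 ± 0.19 (SD, n = 3), and read counting by itself gives an error between 0.09 and 0.11. The ratio was 4.81-fold with the union of exons as gene length, and 9.30 and 8.85-fold with the canonical transcript and the coding length. IDH2 had the fewest reads of the 9 genes, at 265, 288 and 192.

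MDH1 and MDH2 were the highest of the 9 genes in the deposited TPM. With the union of exons as gene length CS was above MDH1, at 139 against 128 TPM, and with the coding length CS and MDH1 were at 191 and 192 TPM. MDH1 (ENSG00000014641, chromosome 2, 63588609 to 63607197, plus strand) was measured at 304, 289 and 283 TPM, with a mean of 292 ± 10.7 TPM (SD, n = 3). MDH2 (ENSG00000146701, chromosome 7, 76048051 to 76067508, plus strand) was measured at 353, 363 and 289 TPM, with a mean of 335 ± 40.7 TPM (SD, n = 3). In replicate 3 both malate dehydrogenases were nearly level, and in the others MDH2 was above MDH1. MDH2 was 1.16, 1.26 and 1.02-fold higher within the libraries, and the mean log2 ratio of MDH1 over MDH2 was -0.19 ± 0.15 (SD, n = 3). The direction depended on the gene length behind the TPM. With the canonical transcript, MDH1 was the higher in all 3 replicates, by 1.11-fold, and with the union of exons and the coding length MDH2 was the higher, by 2.06 and 1.49-fold. The order of both malate dehydrogenases is thus not fixed by these values.

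**Figure D2:**
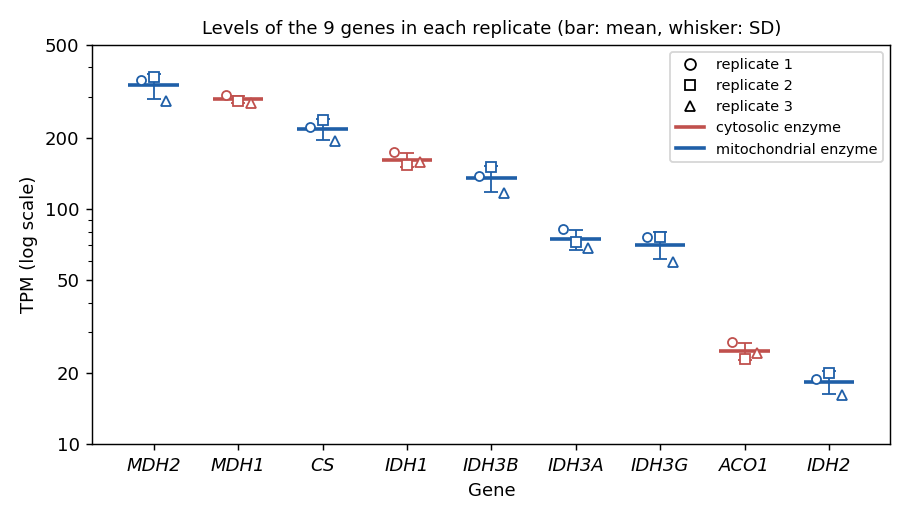
TPM of the 9 genes (log scale) in replicate 1 (circle), 2 (square) and 3 (triangle), with the mean as a bar and the SD as a whisker, ordered by mean. MDH2 and MDH1 lie at the top, IDH1 at 162 TPM is far above IDH2 at 18.4 TPM, and replicate 3 is the lowest for 7 of the 9 genes.

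IDH3A encodes the catalytic subunit of the NAD-dependent enzyme, and IDH3B and IDH3G encode its other subunits. IDH3A (ENSG00000166411, chromosome 15, 78131498 to 78171945, plus strand) was measured at 82.2, 72.7 and 68.3 TPM, with a mean of 74.4 ± 7.11 TPM (SD, n = 3). IDH3B (ENSG00000101365, chromosome 20, 2658395 to 2664219, minus strand) was measured at 138, 151 and 117 TPM, with a mean of 135 ± 16.7 TPM (SD, n = 3). IDH3G (ENSG00000067829, chromosome X, 153785766 to 153794512, minus strand) was measured at 75.8, 75.8 and 59.7 TPM, with a mean of 70.4 ± 9.30 TPM (SD, n = 3). IDH3B lay above both other subunits in every replicate, and IDH3A and IDH3G overlapped. IDH3B was 1.82, 1.99 and 1.97-fold higher than IDH3G, which was the steadiest of the 6 ratios given here, with an SD of 0.07 on the log2 scale and a counting error between 0.07 and 0.08. Its direction was kept under each gene length tried, from 1.58 to 1.91-fold. IDH3B was 1.68, 2.07 and 1.72-fold higher than IDH3A, but with the coding length IDH3A was the higher, by 1.47-fold. In GENCODE release 44, the longest transcript of IDH3A has 4083 bases and its coding length is 1098 bases, and for IDH3B these are 1620 and 1155 bases. IDH3A differed from IDH3G by less than the SD between replicates, and the order changed in replicate 2. It was 2.73-fold above IDH3G with the coding length, and IDH3G was 1.20-fold above IDH3A with the canonical transcript. The mitochondrial NADP-dependent gene IDH2 was below IDH3A by 4.33, 3.62 and 4.22-fold, with a range of 2.54 to 7.68-fold over the gene lengths.

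ACSBG1, on the opposite strand, overlaps 63.9% of the canonical transcript of IDH3A and had 1 read over all libraries. SSR4, also on the opposite strand, overlaps 9.74% of that of IDH3G and was measured at 67.8 TPM. Where counting ignores strand, reads of overlapping genes cannot be told apart, and the use of strand is not given in the sources used here. The annotation names 4 pseudogenes after these 9 genes, and none of them had a read. Apart from CS, at most 2.72% of the 50-base stretches of any of the 9 canonical transcripts also occurred in a same-strand transcript of a different gene.

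Across all 36 pairs of the 9 genes, 35 were in the same order in every replicate, the exception being IDH3A and IDH3G. The order of the means in the deposited TPM was MDH2, MDH1, CS, IDH1, IDH3B, IDH3A, IDH3G, ACO1 and IDH2. It depended on the gene length, and with the union of exons IDH3B was also level with IDH1, at 114 and 112 TPM. Neighbours in this order lay between 1.06-fold apart for IDH3A and IDH3G and 2.83-fold apart for IDH3G and ACO1. MDH2 exceeded MDH1 by 42.9 TPM on average, only slightly more than the SD of this difference within libraries, 34.9 TPM. For 5 of these 6 ratios, the 3 replicates lay on the same side of 0. The exact sign-flip permutation test (two-sided) gave p = 0.25 for these, which is the smallest p that 3 replicates can give, and p = 0.5 for IDH3A over IDH3G. After Benjamini-Hochberg adjustment these were 0.292 and 0.5 by the same exact test, so no ratio could pass a threshold of 0.05 in this design. The 3 cytosolic genes held 36.2%, 33.6% and 38.5% of the summed TPM of all 9, a mean of 36.1% ± 2.46 (SD, n = 3). The mitochondrial genes include the subunits IDH3A, IDH3B and IDH3G of a single enzyme, and CS and ACO1 have no counterpart among the 9. The share is thus no balance of compartments for the same reactions. MDH1 accounted for 22.0% and IDH1 for 12.2% of the sum, and ACO1 for 1.87%. Among mitochondrial genes, MDH2 accounted for 25.1%, CS for 16.4% and IDH2 for 1.38%.

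**Figure D3:**
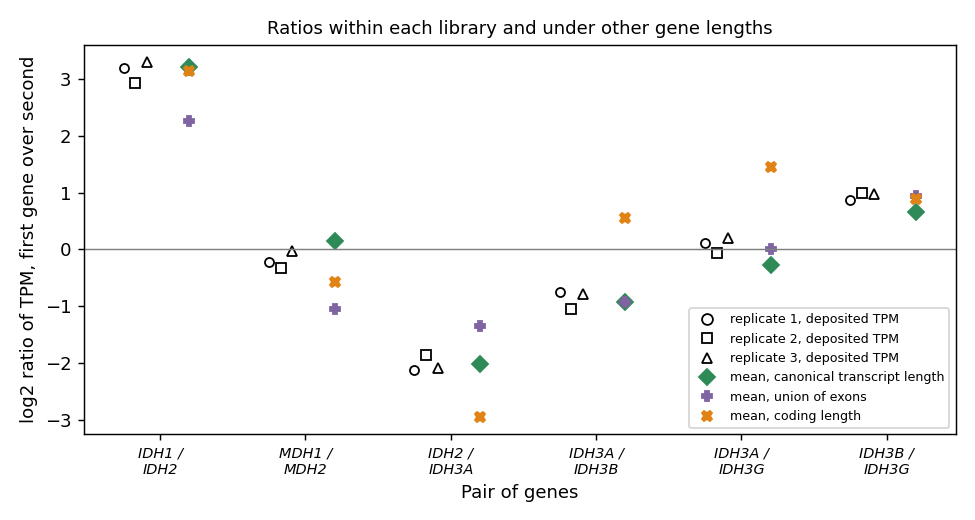
Log2 ratio of TPM, first gene over second, within replicate 1 (circle), 2 (square) and 3 (triangle), and the mean ratio with TPM recomputed with 3 other gene lengths (coloured symbols). IDH1 is above IDH2 and IDH3B above IDH3G under each length, whereas MDH1 over MDH2, IDH3A over IDH3B and IDH3A over IDH3G lie on both sides of 0.

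The spread between replicates was small and had a common part. The median SD of log2(TPM + 1) was 0.15 over the 9 genes and 0.16 over the 8364 protein-coding genes whose mean reached 10 TPM. It was lowest for MDH1 at 0.05 and highest for IDH3G at 0.20. In replicate 3, 7 of the 9 genes were lower than in both other replicates, as were 84.3% of these protein-coding genes, so this is shared with most genes. The exceptions were IDH1 and ACO1, for which replicate 2 was the lowest. With each replicate divided by the median ratio of the genes whose mean reached 10 TPM, replicate 3 was the lowest for 2 of the 9 genes and for 36% of these protein-coding genes. With protein-coding genes summing to 1000000 it was the lowest for 5 of the 9 and for 48.4%, and without mitochondrially encoded genes for 7 of the 9 and for 83.7%.

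Replicates 1 and 2 differed along the base composition of the transcripts. IDH1, MDH1, IDH3A and ACO1 were lower in replicate 2 than in replicate 1, by log2 differences of -0.19, -0.07, -0.18 and -0.24. The same held for 54.4% of protein-coding genes whose mean reached 10 TPM. These were the 4 genes with the lowest GC content of the canonical transcript, from 41.8% for IDH1 to 45.6% for ACO1. The other 5 genes, with a GC content from 48.4% for CS to 59.0% for IDH3G, had log2 differences from 0.00 for IDH3G to 0.13 for IDH3B. Over the 8364 protein-coding genes, which share both libraries and are no independent replicates, Pearson's r of this difference with GC content was 0.48 and Spearman's rho 0.52. For replicate 3 against replicate 2 they were -0.54 and -0.59. For both isocitrate and malate dehydrogenase, the cytosolic transcript had the lower GC content, with 41.8% against 55.5% for IDH1 and IDH2 and 43.1% against 52.1% for MDH1 and MDH2. In both pairs the ratio of cytosolic to mitochondrial gene was lowest in replicate 2 and highest in replicate 3.

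**Figure D4:**
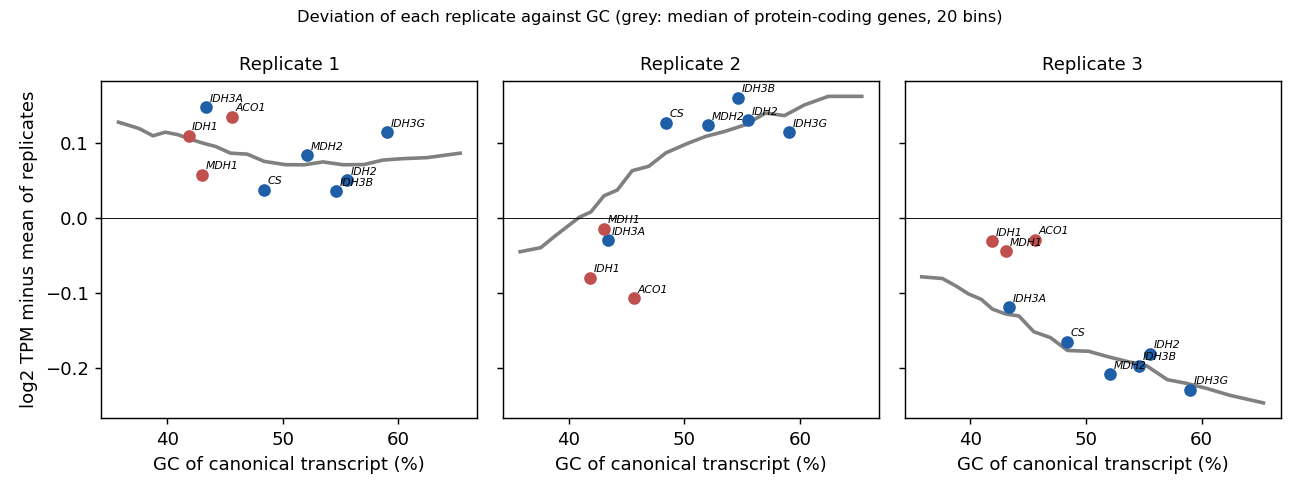
Log2 TPM of each gene minus its mean over replicates (vertical axis) against the GC content of its canonical transcript in percent (horizontal axis), one panel per replicate; red points are cytosolic, blue points mitochondrial enzymes, and the grey line is the median of protein-coding genes whose mean reached 10 TPM in 20 GC bins. In replicate 2 the genes with a GC content up to 45.6% lie below 0 and the others above it.

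The other genes of the pathway were read from lists that hold 33 genes in all. All 12 genes listed for the rest of the TCA cycle were at or above 1 TPM by the mean, as were 56.7% of protein-coding genes. They had a median of 116 TPM, where that of the 9 genes was 135 TPM. In the deposited TPM, the highest was SDHB, the iron-sulfur subunit of succinate dehydrogenase, at 234 ± 21.0 TPM (SD, n = 3). This rank depends on the gene length. FH, at 190 ± 18.2 TPM (SD, n = 3), had 14776 reads over all libraries, against 4129 for SDHB. The longest and canonical transcripts have 5122 and 1791 bases for FH, and 1164 and 1015 for SDHB. With the canonical transcript, FH had more reads per base than SDHB. The lowest was SDHA, named here after its values were seen, at 8.18 ± 2.23 TPM (SD, n = 3). Of its canonical transcript, 69.4% is also annotated as exon of a same-strand gene.

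Of 6 carriers of citrate, malate, alpha-ketoglutarate or, in the malate-aspartate shuttle, aspartate and glutamate, 5 were at or above 1 TPM. The highest was SLC25A1, which exports citrate from mitochondria, at 230 ± 29.1 TPM (SD, n = 3). SLC13A5, which imports citrate through the plasma membrane, had 0 reads in each library, and a count of 0 allows up to 0.124 TPM in a library. Of 9 genes around the citrate and malate-aspartate shuttles, 7 were at or above 1 TPM. In the deposited TPM, ACLY, which splits citrate to acetyl-CoA in the cytosol, was the highest gene in any of these pathway lists. It was at 480 ± 47.6 TPM (SD, n = 3), above MDH2 in every replicate. This order depends on the gene length. With the coding length, 3303 bases for ACLY and 1014 for MDH2, MDH2 had more reads per base in every replicate. With the canonical transcript, 4293 bases for ACLY and 1791 for FH, FH had more reads per base than ACLY. Malic enzymes turn malate to pyruvate, and the cytosolic ME1 was at 49.9 ± 5.07 and the mitochondrial ME2 at 37.5 ± 3.46 TPM (SD, n = 3 each). ME2 had more reads over all libraries, 5152 against 2530, and a longest transcript of 9031 against 3338 bases. Their order depends on the gene length, since the coding lengths are 1752 bases for ME2 and 1716 for ME1. ME3 was not expressed above 1 TPM, with 0, 4 and 1 reads, and PCK1, the cytosolic enzyme that converts oxaloacetate to phosphoenolpyruvate, had 0 reads, which allows up to 0.132 TPM. Of the paralogs and modifiers, 5 of 6 were at or above 1 TPM. IREB2, the paralog of ACO1 that binds iron-responsive elements, was the highest at 57.1 ± 4.20 TPM (SD, n = 3), above ACO1 in every replicate. ACOD1, which makes itaconate from an intermediate of the aconitase reaction, had 0, 3 and 2 reads.

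For each of the 9 genes, the listed gene nearest in log2(TPM + 1) over the 3 replicates was sought among these 33. CS was nearest to SLC25A1 at a Euclidean distance of 0.13, and IDH3B to GOT1, the cytosolic aspartate aminotransferase, at 0.15. IDH2 was nearest to PCK2 at 0.17, MDH1 to GOT2, the mitochondrial aspartate aminotransferase, at 0.19, IDH3A to SLC25A13 at 0.19 and IDH1 to DLST at 0.20. ACO1 was nearest to PC at 0.26, IDH3G to SLC25A13 at 0.31 and MDH2 to GOT2 at 0.34. With 3 replicates of 1 condition, this is likeness of level only.

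**Figure D5:**
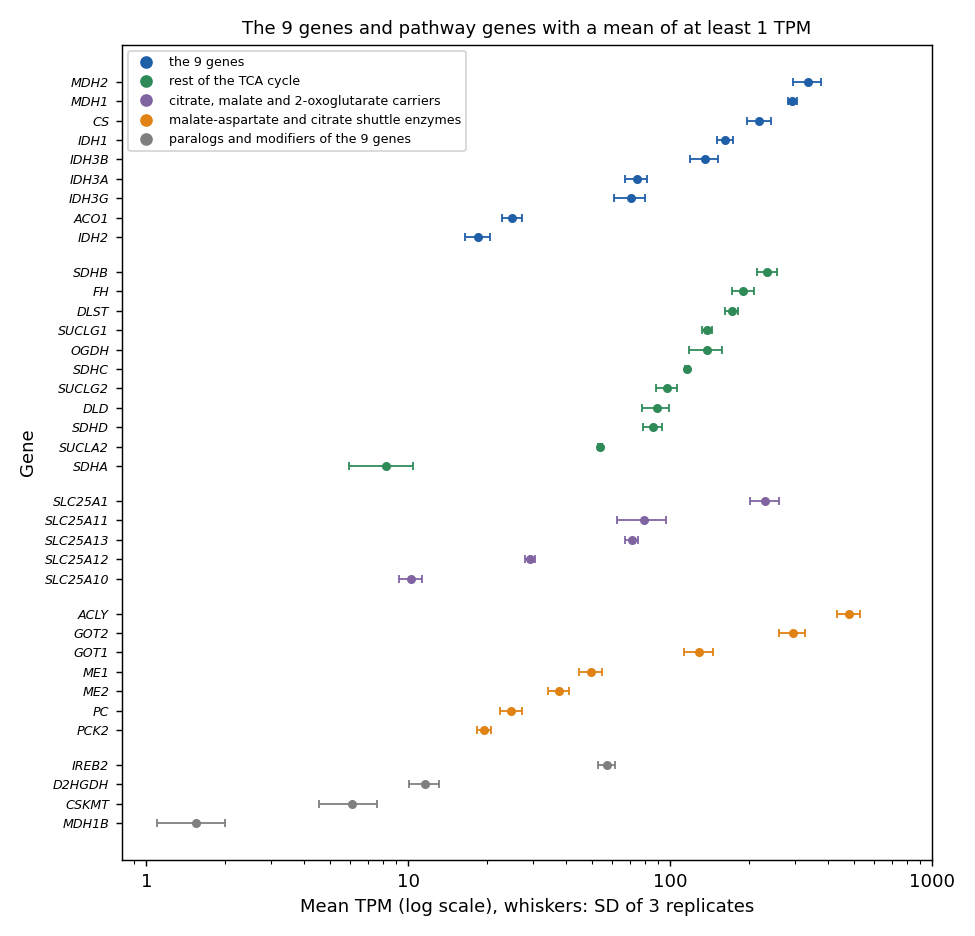
Mean TPM (log scale) with the SD of 3 replicates as whiskers for the 9 genes and the genes shown from 4 pathway lists whose mean reached 1 TPM, grouped by list and ordered by mean. In these deposited TPM, ACLY at 480 TPM lies above all others. IDH2 at 18.4 TPM and ACO1 at 24.9 TPM lie below the rest of the 9 genes. They also lie below every gene shown from the TCA cycle list except SDHA.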

How the data were processed

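RNA-seq was measured in 3 replicates of MCF10A cells with an empty vector. The authors used Seq2science to map to hg38 and to count, and the submitters' processing notes name STAR, fastp and MultiQC. The deposited values are TPM per gene for each replicate, without pooling, and the authors' annotation release and use of strand are not given in the sources used here. Of the 62754 genes, 62700 were found in GENCODE release 44. Reads were recovered by dividing TPM times the length of the longest transcript, less 1 base per exon, by its smallest value above 0. All values were then whole within 0.01, which rests on that step being 1 read. A count of 0 was given a limit of 3 reads.

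The 9 genes and all lists were chosen with earlier results of these data known. Named genes were all 9, and of each list the highest, every gene below 1 TPM, the partners of ratios, and the nearest gene to each of the 9. Ratios were formed within libraries and tested with an exact sign-flip permutation test with Benjamini-Hochberg adjustment over 7 ratios, of which 6 are given, and some items are not reported here. Gene length, pseudocount, cutoff, scaling and leaving out replicates were varied. Genes on the opposite strand, SDHA, FH, ME1 and ME2 were named after their values were seen. Scripts were tested on simulated data. Analyses used Python 3.11.15 with scipy 1.17.1, pandas 2.3.3, matplotlib 3.10.9 and numpy 2.4.6.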

Additional observations from a re-analysis of the deposited data

How the results depend on the processing

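No comparison between groups, paired or not, was possible because 1 group holds all libraries. Of 91 alternative values over 13 results, 76 were held as kept, 3 reversed and 12 moved. Kept means the same direction or a value within the spread, and for counts a value near the main one by ratio. A count of 5 of the 9 genes against 7 was thus held as kept. The mean log2 ratio reversed for MDH1 over MDH2 (-0.19 to 0.15) and IDH3A over IDH3G (0.08 to -0.27) with the canonical transcript, and for IDH3A over IDH3B (-0.86 to 0.55) with the coding length. Each of these settings changes the divisor of a gene by construction. The cytosolic share of 36.1% was 39.02%, 29.4% and 32.6% with the canonical transcript, the union of exons and the coding length. The lowest of the 9 genes was higher than 41.0% of expressed protein-coding genes, and than 37.2%, 50.03% and 33.1% with these lengths and 66.5% with no filter on low values. The median SD of 0.149 was 0.0799 with protein-coding genes summing to 1000000 and 0.0761 with division by the median ratio. The number of the 9 genes lowest in replicate 3 was 7, and 5 and 2 with these scalings, where the share of protein-coding genes went from 84.3% to 48.4% and 36%. With 1 replicate left out, the median SD lay between 0.0632 (without replicate 3) and 0.206 (without replicate 1), the cause of which was not tested. The ratios lay between 3.07 and 3.25 for IDH1 over IDH2, -0.27 and -0.12 for MDH1 over MDH2, and 0.03 and 0.16 for IDH3A over IDH3G, and the cytosolic share between 34.9% and 37.4%. Depth limits the ratios with IDH2, which rest on 192 to 288 reads.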

Other observations

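The spread between replicates was also taken after 2 corrections. Division of each replicate by the median ratio, which leaves GC content aside, gave an SD of log2(TPM + 1) of 0.05 for CS, IDH2 and MDH2, 0.06 for IDH3G, 0.08 for IDH3B and 0.09 for IDH3A. For the cytosolic genes this division raised the SD, from 0.10 to 0.14 for IDH1, from 0.05 to 0.10 for MDH1 and from 0.12 to 0.16 for ACO1. By a correction added once the data had been seen, the median deviation of protein-coding genes in the same of 20 GC bins was subtracted from each replicate, which also takes off the offset shared by all genes of a library. The SD of log2 TPM then fell from 0.16 to 0.02 for IDH2, from 0.18 to 0.02 for MDH2, from 0.18 to 0.04 for IDH3B, from 0.20 to 0.03 for IDH3G, from 0.15 to 0.04 for CS and from 0.14 to 0.05 for IDH3A. For the cytosolic genes it was 0.10 before and 0.09 after for IDH1, 0.05 and 0.07 for MDH1, and 0.12 and 0.15 for ACO1. How much of the fall goes with GC content and how much with the shared offset was not separated by a test. The ratio of IDH1 over IDH2 became 8.98, 8.27 and 9.30-fold in replicates 1, 2 and 3, and its SD of 0.19 on the log2 scale became 0.09, a value under the largest counting error of 0.11. For MDH1 over MDH2 the SD went from 0.15 to 0.10, above its counting error of at most 0.04. The ratio of MDH1 over MDH2 became 0.843, 0.841 and 0.944 in replicates 1, 2 and 3. Replicates 1 and 2 were thus level within counting error, and replicate 3 was the highest. For IDH1 over IDH2 replicate 2 was the lowest and replicate 3 the highest, but this order was not separated from counting error. No mean ratio given here changed its direction.

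Genes related to these enzymes were also expressed at low levels. D2HGDH, which oxidizes the D form of hydroxyglutarate, was at 11.5 ± 1.49 TPM (SD, n = 3), and 14.3% of its canonical transcript overlaps a gene on the opposite strand. CSKMT, which methylates citrate synthase, was at 5.42, 7.79 and 4.98 TPM, and 26.2% of its canonical transcript overlaps a gene on the opposite strand. MDH1B, a paralog of MDH1, was at 1.88, 1.03 and 1.73 TPM from 23, 13 and 18 reads, which are too few for an order between replicates. These 3 genes were named after their values were seen.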
